A study of Rattus norvegicus with 6 samples.

Results

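This account covers 10 genes of the NF-κB system, out of 21857 gene symbols counted in neonatal rat cardiac fibroblasts (NRCFs). They were found by their symbols. Nfkb1, Nfkb2, Rela and Relb encode subunits of the transcription factor. Nfkbia, Nfkbie, Nfkbiz and Bcl3 encode proteins of the IκB family. Tnfaip3 and Birc3 encode feedback proteins of the pathway. All 10 passed the filter on low counts, as did 12941 genes in all.

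NRCFs are primary cells grown from hearts of Sprague-Dawley rats taken within 3 days of birth, although the sample labels give the strain as "Noway". Both groups were transfected. The Vector group (3 libraries, genotype label WT) received empty plasmid. The other group (3 libraries, genotype label "FTO overexpression") received a plasmid with the rat coding sequence of FTO, an enzyme that removes methyl groups from N6-methyladenosine in RNA. The cultures were enriched by adhesion, so other heart cells can remain. No source says whether the 3 libraries of a group came from separate cultures, and p-values then measure only the spread between these libraries.

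The libraries held 13178952 to 17857999 counted reads. Before the NF-κB genes, Fto itself was checked. Levels are given as CPM, the counts of a gene per 1000000 counted reads after scaling between libraries. Fto was at 87.8, 89.6 and 87.4 CPM in Vector replicates 1, 2 and 3, and at 93.2, 90.8 and 92.9 CPM in the libraries labelled FTO. The groups did not overlap, but the difference was small, with a fold change of 1.05 (95% confidence interval 0.976 to 1.12) and an adjusted p-value of 0.24. No rise of Fto mRNA was detected in these counts, although the study reports a successful FTO transfection by qRT-PCR. The reason for this difference was not tested. Each direction below belongs to the libraries labelled FTO. All 10 fibroblast markers on a fixed list were detected in both groups. Their summed level was 41420 to 42000 CPM in Vector and 21580 to 22560 CPM in the libraries labelled FTO. This sum was led by Col1a1 (mean 25809 and 8268 CPM) and Col3a1 (10699 and 3338 CPM), which both fell. Of the fibroblast markers, 5 were higher and 5 lower. For each marker list these words mean an adjusted p-value under 0.05, as for 33.2% (higher) and 32.8% (lower) of all tested genes. Among the fibroblast markers, Dcn, a proteoglycan gene, was at 45.3 to 48.4 CPM in Vector and at 5447 to 5861 CPM in the second group. Of 12 macrophage markers, 11 were lower and 1 higher. Their sum, led by Lyz2, which fell, went from 1800 to 1858 CPM in Vector to between 303 and 341 CPM. Of 7 cardiomyocyte markers, 6 were higher and 1 lower, with a median log2 fold change of 1.16. Their sum, led by Tnnt2, which fell, was 1206 to 1228 CPM in Vector and 1564 to 1632 CPM in the second group. Of 5 endothelial markers tested, 4 were higher and 1 lower, also with a median of 1.16. The sum of all 7 listed, led by Flt1, which fell, was 114 to 118 CPM in Vector and 111 to 116 CPM in the second group. Lymphocyte markers were at or near 0, with sums of at most 0.208 CPM and Cd3e, Cd3d and Ms4a1 at 0 in every library. Whether these other cells had a part in the results was not tested.

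In resting cells, NF-κB dimers are held in the cytoplasm by IκB proteins. Signals from cytokine, Toll-like or interleukin receptors activate the IκB kinase, IκB is degraded, and the dimers enter the nucleus. Many of the genes they then switch on encode their own inhibitors, so the pathway limits itself. In fibroblasts, NF-κB drives chemokines, cytokines and adhesion molecules.

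Promoters were inspected first, because several of these genes are textbook targets of the factor they regulate. RefSeq promoter sequences (build GRCr8, 250 bases before to 50 after the annotated start) matched 8 of the 10 members, all except Relb and Birc3. Each was searched on both strands for the κB consensus, a motif of 10 bases. Matches stood in 7 of 8 member promoters (87.5%), against 2515 of all 33469 promoters (7.51%) and 1103 of 10871 promoters of tested genes (10.1%). On the gene lists used below, matches stood in 11 of 26 promoters of NF-κB target genes (42.3%) and 7 of 31 of upstream signalling genes (22.6%). For other subunits, inhibitors and regulators it was 2 of 15 (13.3%). The matches of the members took 9 positions, of which 2 matched on both strands. Rela was the member without a match in this window. A match describes letters and does not show binding. Since several members are textbook targets, a high share was likely before the search and says nothing about the changes in expression. The stretches are printed 5′ to 3′ along the gene, with the matches in capitals.
Nfkb1, chr2:226805440-226805469, minus strand: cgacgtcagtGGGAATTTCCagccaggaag
Nfkb2, chr1:255108344-255108373, plus strand: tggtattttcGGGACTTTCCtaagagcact
Nfkbia, chr6:78597084-78597113, minus strand: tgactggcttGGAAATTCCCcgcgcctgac
Nfkbie, chr9:22948017-22948046, minus strand: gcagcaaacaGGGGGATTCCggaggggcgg
Nfkbiz, chr11:58251698-58251727, plus strand: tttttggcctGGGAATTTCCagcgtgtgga
Bcl3, chr1:88613574-88613603, minus strand: tcggcggcagGGGAAGTCCCgcagcccggc
Tnfaip3, chr1:15544130-15544159, minus strand: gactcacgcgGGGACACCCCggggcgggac
Tnfaip3, chr1:15544015-15544056, minus strand: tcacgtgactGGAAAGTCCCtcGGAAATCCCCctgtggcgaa

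Some members shared the same letters. The run GGGAATTTCC stood in Nfkb1 and Nfkbiz on the gene's strand and in Nfkbia on the opposite strand, and in 25 of 33469 promoters in all (0.0747%). The run GGGACTTTCC stood in Nfkb2 and, on the opposite strand, in Tnfaip3, and in 37 promoters in all (0.111%). Counted from the start site, 5 members had a match that began between positions -38 (Bcl3) and 4 (Nfkb1). In Nfkbie the match began at position -164. In Tnfaip3 matches began at -170, -67 and -55.

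**Figure D1:**
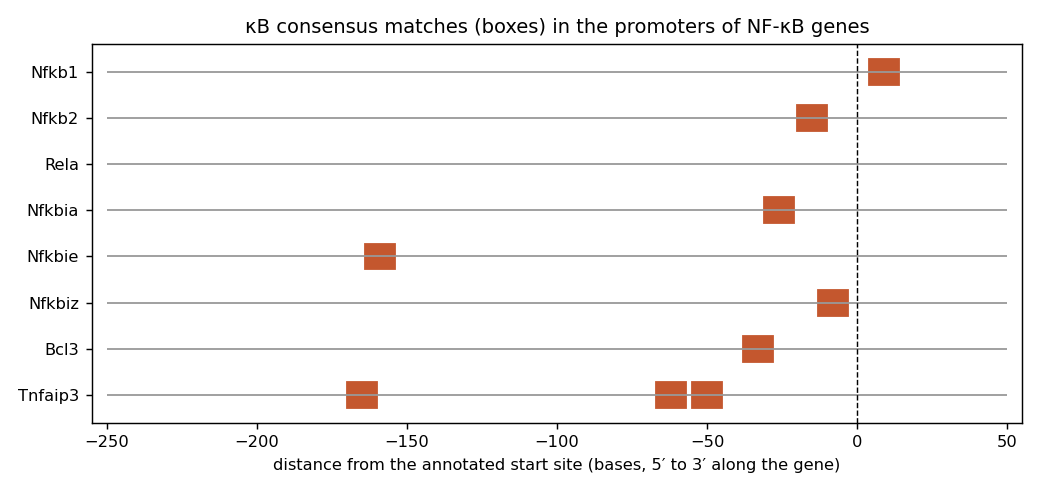
Positions of κB consensus matches in RefSeq promoters of 8 NF-κB genes. The horizontal axis is the distance from the annotated start site in bases, each grey line is a promoter and each box is a match. Rela has no box, Tnfaip3 has 3, and 5 of the other genes have theirs close to the start.

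All 10 genes were higher in the libraries labelled FTO than in Vector, by 1.24-fold (Rela) to 12.0-fold (Birc3). All 10 had an adjusted p-value under 0.05 by the quasi-likelihood test of edgeR, where 33.2% of all tested genes were called higher and 65.9% were called in either direction. The study's own threshold asks for a log2 change of 1 or more and an unadjusted p-value under 0.05. By it, 9 of 10 were higher, against 10.4% of all genes. Rela was the exception. In all 10 the lowest library labelled FTO lay above the highest Vector library, as it did for 35.5% of all genes. The median log2 fold change was 1.85 over the members and 0.00 over all tested genes. The members were chosen with earlier results of these data known, so this contrast is not independent evidence. In bulk RNA, a change in the number of expressing cells and a change in RNA per cell cannot be told apart.

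**Figure D2:**
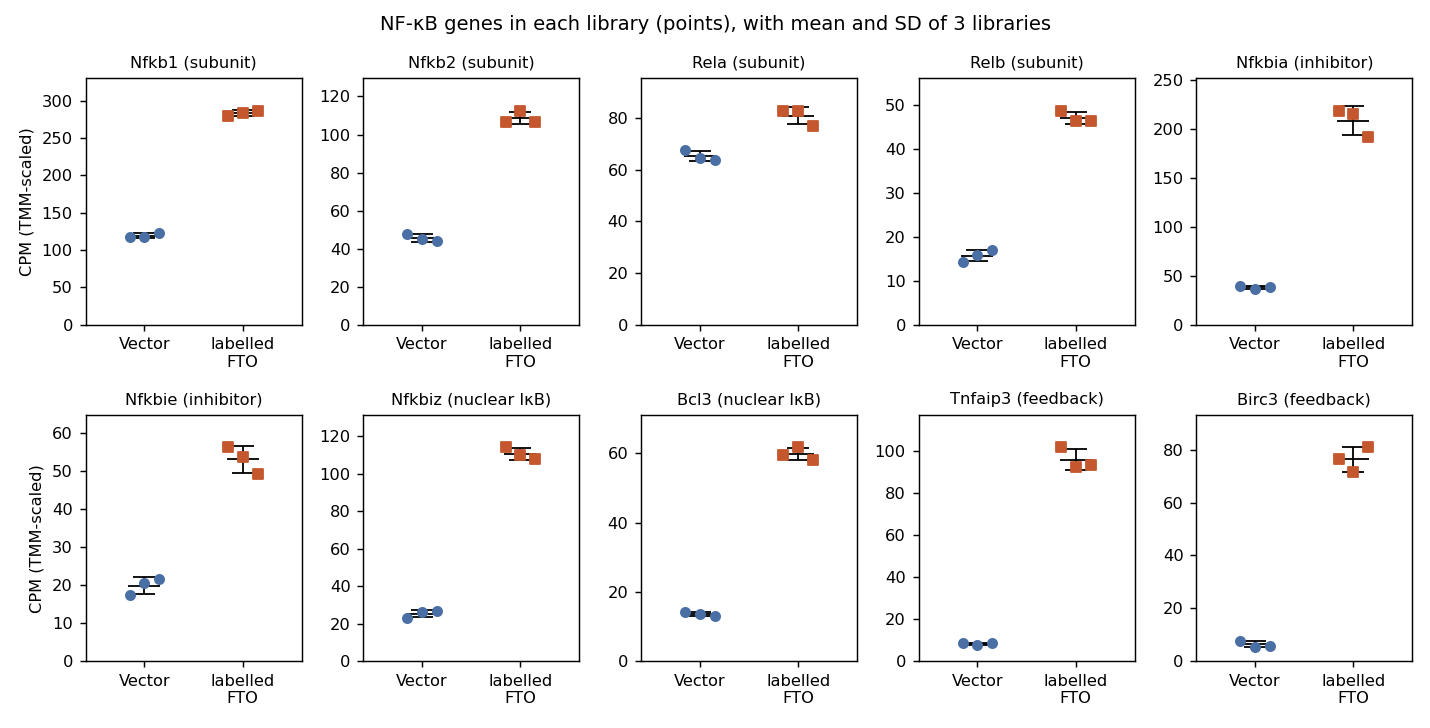
CPM of the 10 NF-κB genes in each library, with axes from 0. Circles are Vector, squares are libraries labelled FTO, and bars give mean and SD of 3 libraries. In every panel the 3 squares lie above the 3 circles, closest for Rela (63.9 to 67.5 against 77.0 to 82.9 CPM).

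The subunits came first. Nfkb1 encodes a precursor that is processed into a DNA-binding subunit of the classical dimer. It was at 118, 117 and 123 CPM in Vector and at 279, 284 and 287 CPM in the libraries labelled FTO. The groups stood far apart, and replicates within a group lay close together. Nfkb1 rose 2.38-fold (interval 2.24 to 2.53), or 1.25 ± 0.0423 (SE) on the log2 scale, with an adjusted p-value of 7.4e-13.

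Nfkb2 encodes the corresponding precursor of the alternative pathway. It was at 47.8, 45.2 and 44.0 CPM in Vector and at 107, 113 and 107 CPM in the other group. Its fold change was 2.38 (interval 2.20 to 2.58), with an adjusted p-value of 1.6e-11. Its interval lay almost wholly over that of Nfkb1.

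Rela encodes the main activating subunit of the classical dimer. It was at 67.5, 64.6 and 63.9 CPM in Vector and at 82.9, 82.8 and 77.0 CPM in the libraries labelled FTO. The groups did not overlap, but the gap was small. Rela rose 1.24-fold (interval 1.14 to 1.34), or 0.31 ± 0.0538 (SE) on the log2 scale, and the adjusted p-value was 1.4e-04. The upper end of this interval lay under the lower end for each of the other 9 genes, the nearest being 2.20 for Nfkb2.

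Relb encodes the activating partner of the Nfkb2 product. It was at 14.3, 15.9 and 17.0 CPM in Vector and at 48.8, 46.4 and 46.3 CPM in the libraries labelled FTO. Every library of the second group was far above the first. Relb rose 2.99-fold (interval 2.67 to 3.35), with an adjusted p-value of 6.0e-11.

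**Figure D3:**
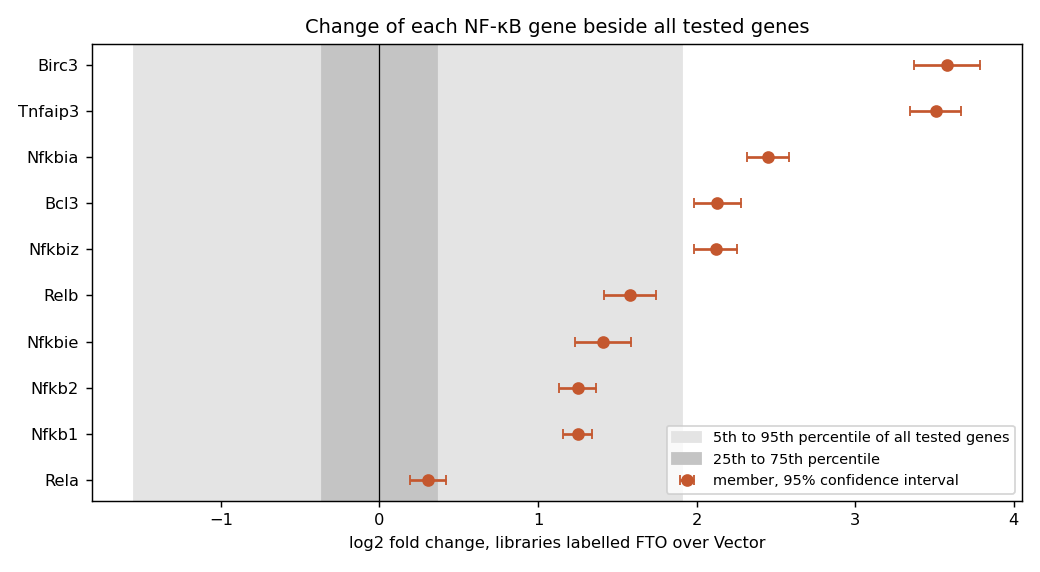
Log2 fold change of each member, libraries labelled FTO over Vector, with 95% confidence intervals. Shaded bands give the middle of all 12941 tested genes. Rela (0.31) lies inside the 25th to 75th percentile band, and Nfkbiz, Bcl3, Nfkbia, Tnfaip3 and Birc3 lie above the 95th percentile (1.91).

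The inhibitors followed. Nfkbia encodes IκBα, the inhibitor that is degraded and remade within a short time of a signal. It was at 39.5, 36.4 and 38.3 CPM in Vector and at 219, 215 and 191 CPM in the libraries labelled FTO. Replicate 3 was the lowest of its group and still far above Vector. Nfkbia rose 5.47-fold (interval 5.00 to 5.99), or 2.45 ± 0.0614 (SE) on the log2 scale, with an adjusted p-value of 1.9e-14.

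Nfkbie encodes IκBε, a slower inhibitor of the same kind. It was at 17.4, 20.5 and 21.7 CPM in Vector and at 56.2, 53.6 and 49.2 CPM in the other group. The groups were well separated, though Vector replicates varied more here than for most members. Nfkbie rose 2.66-fold (interval 2.35 to 3.01), with an adjusted p-value of 7.7e-10.

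Nfkbiz and Bcl3 encode IκB proteins that act in the nucleus, where they modify transcription by bound NF-κB. Nfkbiz was at 23.2, 26.2 and 26.7 CPM in Vector and at 114, 110 and 108 CPM in the libraries labelled FTO. It rose 4.35-fold (interval 3.96 to 4.78), with an adjusted p-value of 1.5e-13. Bcl3 was at 14.2, 13.6 and 13.1 CPM in Vector and at 59.4, 61.7 and 58.1 CPM in the other group. It rose 4.38-fold (interval 3.95 to 4.86), with an adjusted p-value of 4.8e-13. The intervals of these nuclear IκB genes overlapped almost wholly.

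The feedback genes had the largest fold changes of the 10. Tnfaip3 encodes a ubiquitin-editing enzyme that shuts down signalling upstream of the IκB kinase. It was at 8.78, 7.92 and 8.59 CPM in Vector, from 118 to 124 counts, and at 102, 92.6 and 93.5 CPM in the libraries labelled FTO. Vector libraries were uniformly low. Tnfaip3 rose 11.4-fold (interval 10.2 to 12.7), or 3.51 ± 0.0752 (SE) on the log2 scale, with an adjusted p-value of 2.9e-15.

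Birc3 encodes a ubiquitin ligase of the inhibitor-of-apoptosis family that binds TNF receptor complexes. It was at 7.68, 5.57 and 5.96 CPM in Vector and at 76.5, 71.4 and 80.9 CPM in the libraries labelled FTO. Its lowest library held 83 counts, the fewest of any member. Vector replicate 1 stood above the other Vector libraries, and all were far below the second group. Birc3 rose 12.0-fold (interval 10.3 to 13.8), with an adjusted p-value of 5.3e-14. Among all tested genes the change of Birc3 lay at the 98.1 percentile and that of Tnfaip3 at the 98.0 percentile, against 72.1 for Rela and 91.7 for both Nfkb1 and Nfkb2.

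Ratios of counts within a library were compared next, because they need no scaling between libraries. The 4 pairs were tested by a two-sided exact permutation test, which cannot go below 0.1 with 3 libraries against 3. Nfkb2 to Nfkb1 was 0.406, 0.386 and 0.358 in Vector and 0.383, 0.396 and 0.372 in the libraries labelled FTO. The groups overlapped, with a difference of 0.00 on the log2 scale (exact p = 1, also 1 after adjustment). The 6 ratios of the precursor genes lay between 0.358 and 0.406.

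Relb to Rela was 0.212, 0.246 and 0.265 in Vector and 0.588, 0.560 and 0.601 in the libraries labelled FTO. The mean ratio, taken on the log2 scale here and for the next pairs, was 2.43 times that of Vector. Nfkbia to Rela was 0.585, 0.564 and 0.599 in Vector and 2.64, 2.60 and 2.49 in the second group, 4.42 times as high. Nfkbia to Nfkbie was 2.27, 1.77 and 1.77 in Vector and 3.90, 4.01 and 3.89 in the second group, 2.04 times as high. In these 3 pairs the groups did not overlap, and each had the smallest p the exact test allows (0.1, or 0.133 adjusted over the 4 pairs). The ratios restate the fold changes given above and are not separate evidence. Relb to Rela and Nfkbia to Rela also share Rela, the member with the smallest change. How often other gene pairs separate the groups was not tested.

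**Figure D4:**
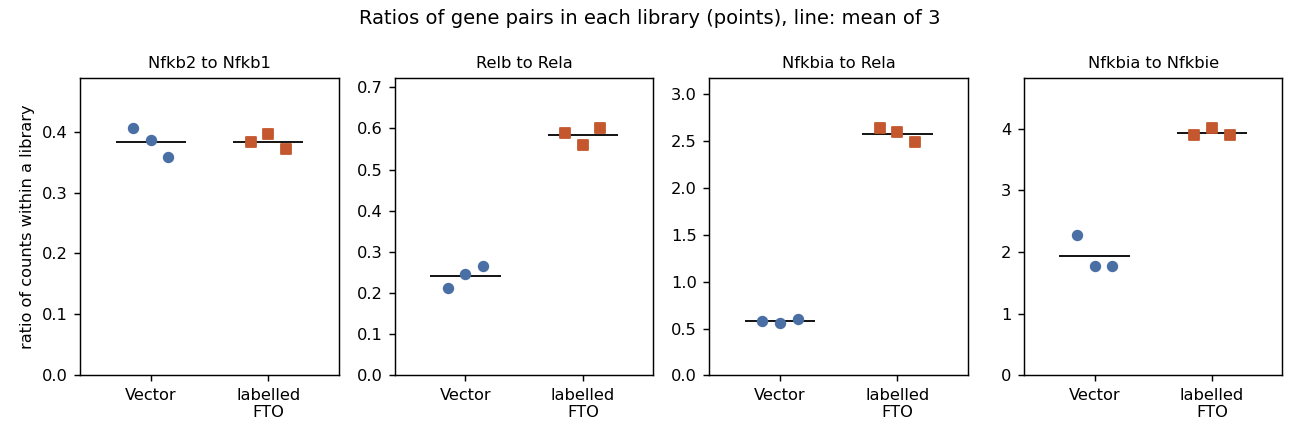
Ratio of counts of a gene pair within each library, with axes from 0. Circles are Vector, squares are libraries labelled FTO, and the line is the mean of 3. Nfkb2 to Nfkb1 overlaps between groups, and the other 3 pairs do not.

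The rest of the family did not move as one, but the members and this list were chosen with earlier results known. The contrast between them is therefore not a test. A list of 15 other subunits, inhibitors and negative regulators was tested, and 6 were higher, 3 lower and 6 not called. Of all tested genes, 33.2% were higher and 32.8% lower. The list's median log2 fold change was 0.12. Rel, the last of the NF-κB subunits, is most abundant in blood cells. It was at 5.12, 5.50 and 5.33 CPM in Vector and at 3.65, 3.63 and 4.24 CPM in the libraries labelled FTO. Rel fell by 0.46 on the log2 scale (SE 0.155), with an adjusted p-value of 0.017. The call was lost with DESeq2 (adjusted p-value 0.0629), without Vector replicate 2 (0.0522) and without FTO replicate 1 (0.0508). Beside it, Ptprc, which encodes the pan-leukocyte protein CD45, was at 53.8, 55.6 and 55.5 CPM in Vector and at 16.1, 13.1 and 16.0 CPM in the second group, and its part in the fall of Rel was not tested.

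Nfkbib, which encodes IκBβ, rose from 14.4 ± 0.932 to 28.6 ± 2.40 CPM (mean ± SD, n = 3), a fold change of 1.98 (interval 1.73 to 2.27). Nfkbid, another nuclear IκB gene, was at 0.939 ± 0.328 and 1.55 ± 0.179 CPM. It missed the threshold (adjusted p-value 0.052) but passed with limma-voom (0.0493), with library size alone (0.0499) and without Vector replicate 1 (0.0205). Nfkbil1 was at 10.1 ± 1.56 and 10.2 ± 1.03 CPM and was not called.

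The partners of Tnfaip3 varied. Tnip1 and Tnip3 encode ubiquitin-binding proteins that work with it. Tnip1 rose from 76.5 ± 3.77 to 581 ± 30.2 CPM, 7.59-fold. Tnip3 rose from 3.49 ± 0.238 to 51.5 ± 1.45 CPM, 14.7-fold. Their adjusted p-values were 4.4e-16 and 1.1e-14. Tnip2, of the same family, rose 1.28-fold (adjusted p-value 0.0027). Itch, a ubiquitin ligase, fell by 0.69 on the log2 scale (adjusted p-value 2.5e-06), while the adaptor Tax1bp1 was at 511 ± 1.11 and 536 ± 5.11 CPM and did not pass (0.11).

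Zc3h12a, an RNase that degrades inflammatory mRNAs, rose from 19.3 ± 0.879 to 138 ± 7.11 CPM, 7.18-fold, with an adjusted p-value of 4.5e-15. N4bp1, an inhibitor of NF-κB signalling, rose 1.29-fold (2.8e-04). Pdlim2, a ubiquitin ligase for nuclear RelA, fell by 0.53 on the log2 scale (4.7e-06). The deubiquitinases Cyld (24.4 ± 0.853 and 25.8 ± 2.05 CPM) and Otulin (10.6 ± 0.591 and 8.77 ± 0.580 CPM) did not pass, nor did Commd1, which promotes RelA turnover (21.4 ± 1.16 and 23.2 ± 2.72 CPM). Otulin was near the threshold (0.051) and passed with RLE size factors (0.0498) and without FTO replicate 3 (0.0418) or Vector replicate 3 (0.0481).

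Genes upstream of NF-κB, also listed with earlier results known, differed less than the 10 members. Of 38 listed, 37 were tested, 23 were higher, 4 lower and 10 not called, with a median log2 fold change of 0.35. Over all tested genes, 33.2% were higher and 32.8% lower. By the study's threshold 8 of the 37 were higher, where 10.4% of all genes were higher. The IκB kinase itself showed small differences. Its scaffold Ikbkg was at 11.5 ± 0.423 and 11.6 ± 1.99 CPM, and its catalytic gene Ikbkb at 46.5 ± 2.94 and 46.1 ± 0.736 CPM, and neither was called. The other catalytic gene, Chuk, changed by -0.14 on the log2 scale with an adjusted p-value of 0.049. That call was lost in 10 of 13 alternatives. Among these were DESeq2 (0.103) and the fits without Vector replicate 1 (0.102), 2 (0.108) or 3 (0.0902), or without FTO replicate 2 (0.17) or 3 (0.0529). Map3k7, the kinase above it, was under the filter with a mean of 3.33 counts.

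The largest increases upstream were in Irak3, Tlr2, Map3k8 and Ripk2. Irak3, which encodes a kinase-like inhibitor of Toll-like receptor signals, rose from 47.6 ± 2.54 to 351 ± 13.3 CPM, 7.37-fold. Tlr2, a receptor for bacterial lipoproteins, rose from 35.2 ± 1.30 to 173 ± 16.1 CPM, 4.90-fold. Map3k8, a kinase held by the Nfkb1 product, rose 4.49-fold, and Ripk2, a kinase of intracellular peptidoglycan sensors, 3.20-fold. Their adjusted p-values were at most 2.7e-11.

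Among called upstream genes with at least 100 counts on average, the decreases were in Traf5, Map3k14, Tab2 and Chuk. Traf5, an adaptor of TNF-family receptors, fell by 0.68 on the log2 scale (adjusted p-value 6.6e-05). Map3k14, the kinase that starts the alternative pathway, was at 9.29, 8.86 and 11.2 CPM in Vector and at 6.24, 7.25 and 8.04 CPM in the libraries labelled FTO. It fell by 0.44 (SE 0.138, adjusted p-value 0.012), and did not pass without Vector replicate 3 (0.0713) or FTO replicate 1 (0.0561). Tab2, an adaptor of the kinase Map3k7, fell by 0.31 (2.7e-05). These falls were small beside the rises above.

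Of the lists, target genes of NF-κB had the largest median change, but the lists were chosen with earlier results of these data known. Of 30 listed, 28 were in the table and 26 were tested, of which 23 were higher and 3 lower, with a median log2 fold change of 4.84. The shares over all tested genes were 33.2% and 32.8%. Ccl5, a chemokine, had at most 1 count in each Vector library. It reached 70.7 ± 2.05 CPM in the second group, at least 338-fold higher than the floor of 3 counts per library. Lcn2, an iron-binding acute-phase protein, rose from 2.18 ± 0.751 to 3483 ± 335 CPM, or by 10.63 ± 0.120 (SE) on the log2 scale.

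Chemokines Cxcl10 and Cxcl2 had 2 to 6 counts in each Vector library and rose to 101 ± 15.4 and 57.7 ± 7.97 CPM. Their log2 fold changes were 8.05 and 7.90, with SE of 0.188 and 0.208. The adjusted p-values of Lcn2, Cxcl10 and Cxcl2 were 2.3e-18, 7.8e-15 and 3.6e-14. The abundant genes that fell were Bcl2l1, a survival gene (by 0.20, adjusted p-value 0.0022), and Gadd45b, a stress gene (by 0.19, 0.02). Gadd45b did not pass with DESeq2 (0.0557), without Vector replicate 2 (0.0701) or without FTO replicate 1 (0.0714).

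**Figure D5:**
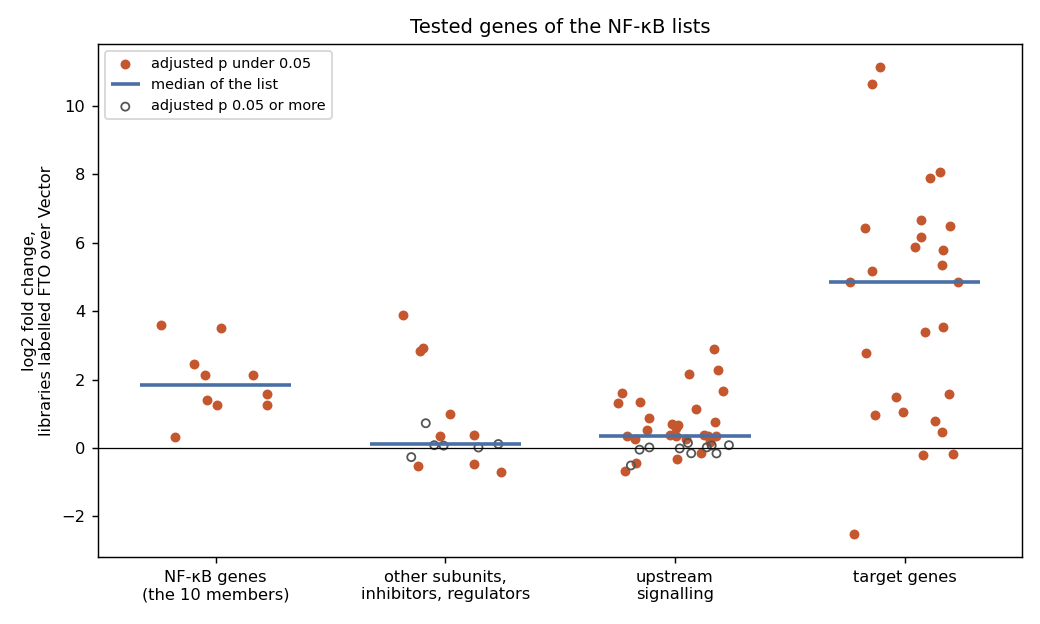
Log2 fold change of tested genes in 4 lists, libraries labelled FTO over Vector. Filled points passed an adjusted p-value of 0.05, open points did not, and the bar is the list median, at 1.85, 0.12, 0.35 and 4.84 from left to right.

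Lastly, the genes whose pattern was nearest to the mean of the 10 members were found, by Euclidean distance of centred log2 CPM over the 6 libraries. Among the nearest were Gramd4 (distance 0.102) and Ugdh (0.113), with log2 fold changes of 1.89 and 1.86. With 2 groups, this likeness mostly measures a similar fold change.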

How the data were processed

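RNA-seq was performed on 6 NRCF libraries, 3 Vector and 3 labelled FTO. The values the authors deposited are unnormalised counts of reads, listed by gene symbol for each library. The submitters' processing notes name Trimmomatic and rn6. The aligner, counting program, annotation and use of strand are not given in the sources used here, so overlapping genes and near-identical copies are uncertain. Counts carry no molecular identifiers, and intervals cover replicate spread and counting error only.

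Genes were kept with filterByExpr (minimum count 10). Libraries were scaled by TMM, with factors from 0.995 to 1.005, and compared with the quasi-likelihood test of edgeR 4.0.16 in R 4.3.3 (two-sided, no covariate). P-values were adjusted by Benjamini-Hochberg over all 12941 genes. SE was taken from the fold change and its F statistic. Within-group pairs differed by more than sampling noise (chi-square per degree of freedom 1.58 to 8.38), so each library was counted once. The procedure was tested on simulated counts.

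Alternatives were DESeq2 1.42.0, limma-voom (limma 3.58.1), RLE factors, library size alone, no filter, a mean of at least 10 counts, a replicate block, and leaving out each library. Members and gene lists were chosen with earlier results of these data known. Named genes are the 10 members, Fto, the list of other subunits and regulators, and the 4 largest increases and decreases per list among called genes with at least 100 counts on average. Ptprc, Dcn, Col1a1, Col3a1, Lyz2, Tnnt2, Flt1 and genes named for a value under the filter or at 0 were singled out afterwards. So were Ikbkb, Ikbkg and the genes among the closing observations. The 3 genes nearest in pattern to the members were also to be named. Of these, 1 is not reported here. Nos2, Saa3, Itgam and Ttn, on the lists, are not analysed here. Promoters are RefSeq sequences of build GRCr8. No coordinates of the counted genes are given, since the counts name rn6.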

Additional observations from a re-analysis of the deposited data

How the results depend on the processing

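All 10 members were higher at the adjusted threshold under each of 13 alternatives, and 9 passed the study's threshold in each. Over all genes the number called ran from 7795 (DESeq2) to 9009 (no filter), and among the other NF-κB genes from 58 (DESeq2) to 64 (limma-voom), against 62. Fto was not called in any, with log2 fold changes from 0.051 to 0.078. Of 40 genes followed one by one, 33 stayed on their side of the threshold with the same sign in every alternative. The others gave 18 calls lost and 6 gained, all in Rel, Chuk, Map3k14, Gadd45b, Nfkbid and Otulin, and Nfkbil1, never called, changed sign, ranging from -0.101 to 0.118 across fits without 1 library. The cause was not tested. Replicate numbers did not pair the libraries: deviations from group means correlated at 0.004, -0.079 and 0.035 for equal numbers and at -0.115 to 0.109 for unequal ones, and 1 of 3 Vector libraries correlated best with its own number. With the replicate block, 8399 genes were called in all, 62 of the other NF-κB genes and all 10 members. Chuk was the followed gene whose call the block changed (adjusted p-value 0.0561). Depth limits genes near 3 counts, such as Ccl5 in Vector.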

Other observations

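Some listed genes were looked at singly, whether or not they went with their list. Tnf, which encodes a cytokine that activates NF-κB and is also its target, had 0 counts in all 6 libraries, which allows up to 3 counts per library (0.168 to 0.227 CPM). The target gene Il1b had 10, 7 and 1 counts in Vector and rose to 36.6 ± 2.50 CPM (mean ± SD, n = 3) under the FTO label. Cd83, another target and a marker of activated immune cells, fell by 2.52 on the log2 scale, from 11.5 ± 1.61 to 2.01 ± 0.105 CPM. Among macrophage markers, Adgre1 was the gene that rose, from 6.81 ± 1.52 to 31.7 ± 3.64 CPM, while C1qb and C1qc fell to 2 counts or fewer per library, at least 97.8-fold and 77.5-fold lower.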
